A study of Homo sapiens with 14 samples.

Results

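The KMT2D peaks of chromosome 3 were divided into a short arm and a long arm at position 91 Mb of the hg19 (GRCh37) assembly, each peak going to the arm that held its summit, the position of strongest signal. Of 13808 peaks in the list, 782 lay on chromosome 3, with 264 on the short arm and 518 on the long arm. Chromosomes 1 to 22 and X together carried 13136 peaks. The division used position alone, so every measured value of a peak could be compared between the arms.

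The study covered the established human cell line SCC23, derived from a head and neck squamous cell carcinoma (HNSCC), with 14 sample labels for antibodies to KMT2D, histone H3 and H3 marks, and an input. The peaks came from 1 library, a KMT2D ChIP in KMT2D-WT cells kept without glucose for 6 h. No replicate of this library was analysed, and neither KMT2D-KO cells nor the histone marks entered any comparison here. The protocol describes transfection with a Cas9 plasmid carrying a guide to LacZ or to KMT2D; whether the KMT2D-WT cells of this library had received the LacZ guide is not stated. The name SCC23 rests on the label, since a peak list without gene names holds no marker of the cell type. No test between libraries was possible, and the intervals given are at the 95% level and cover counting error only. Those of ratios of medians take the outer bounds of both medians and are wider than that level. Peaks that lie close together are not independent, so intervals may otherwise be too narrow.

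KMT2D is a histone methyltransferase that places H3K4me1 at enhancers, the distal elements that raise transcription of their target genes, and it also occupies some promoters. Squamous carcinomas of the head and neck often lose copies of the short arm of chromosome 3 and gain copies of its long arm. The short arm carries the tumour suppressor genes VHL, FHIT and RASSF1 and the Fanconi anemia gene FANCD2, while the long arm carries TP63 and SOX2, transcription factors of squamous epithelium, the kinase genes PIK3CA and ATR, and the repair polymerase gene POLQ. Copy number in these cells was not measured in the list, and no peak was assigned to a gene, because the annotation at hand was of another build (GRCh38).

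The long arm carried more peaks per unit of length. Its 518 peaks spanned 104.1 Mb from the first to the last summit, or 4.98 peaks per Mb (4.56 to 5.42). The short arm had 264 peaks over 82.8 Mb, or 3.19 per Mb (2.82 to 3.6). The ratio of the long arm to the short arm was 1.56 (1.34 to 1.82). With the short arm measured from position 0 and the long arm from the split, it was 1.67 (1.44 to 1.95). The GRCh38 annotation counts 510 protein-coding genes on the short arm and 571 on the long arm. Over the lengths from first to last summit these were 6.16 and 5.48 genes per Mb. Those lengths leave out ends without a summit, whereas the genes were counted over whole arms, so the difference in gene density is uncertain in size. There were 90.7 peaks per 100 genes on the long arm and 51.8 on the short arm, a ratio of 1.75 (1.51 to 2.04).

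Density changed along both arms. In bins of 5 Mb counted outward from the boundary, the 18 bins of the short arm held between 0 and 7.8 peaks per Mb with a median of 2.4, and the 21 bins of the long arm between 0.40 and 15 with a median of 3.4. The ranges overlapped over most of their length, and the ratio of the 2 medians was 1.42 (0.609 to 9.33), an interval that includes 1. The densest bins of the short arm lay at 11 to 16 Mb, with 39 peaks and 7.80 per Mb (5.55 to 10.7), at 41 to 46 Mb with 6.60 per Mb and at 46 to 51 Mb with 6.40. Its sparsest bins lay between 61 and 81 Mb. The bin at 61 to 66 Mb held 0 peaks, which allows up to 0.738 peaks per Mb, and those at 71 to 76 and 76 to 81 Mb held 1 peak each.

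The densest bins of the long arm were its last 3 whole bins. The bin at 191 to 196 Mb held 75 peaks, or 15 per Mb (11.8 to 18.8), the bin at 186 to 191 Mb held 48 and the bin at 181 to 186 Mb held 47. The interval of the densest of these bins did not overlap that of the densest short-arm bin. A remaining end piece of 1.80 Mb, past 196 Mb, held a further 41 peaks, more per Mb than any whole bin. The sparsest bins of the long arm lay at 91 to 96 Mb with 2 peaks, at 141 to 146 Mb with 4, and at 136 to 141 and 161 to 166 Mb with 5 each. With everything beyond 181 Mb left out, the long arm had 307 peaks and 3.56 per Mb, and the ratio to the short arm was 1.12 (0.943 to 1.32), an interval that includes 1. That removes the densest bins from the long arm alone. With the 3 densest bins of both arms and the end piece left out, 307 peaks of the long arm gave 3.52 per Mb and 160 of the short arm 2.36 per Mb, a ratio of 1.49 (1.23 to 1.82).

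**Figure D1:**
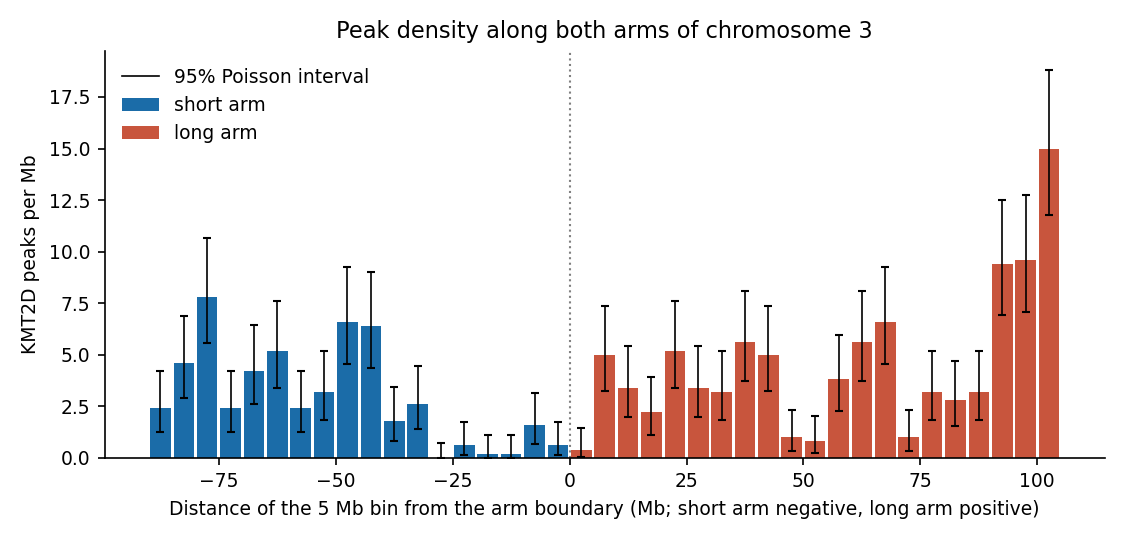
Peaks per Mb in bins of 5 Mb (vertical axis) by distance from the arm boundary in Mb (horizontal axis, short arm negative and blue, long arm positive and red), with bars for the density of each bin and lines for its exact 95% Poisson interval. The last 3 bins of the long arm stood at 9.40, 9.60 and 15 peaks per Mb, above the highest bin of the short arm at 7.80. The end piece of the long arm past 196 Mb is not drawn.

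Stretches without any summit took up more of the short arm. The longest ran from summit to summit over 11.1 Mb, chr3:58038232-69132126, and the next over 5.23 Mb, chr3:76546991-81776066. On the long arm the longest were 4.53 Mb, chr3:114369876-118900892, and 3.84 Mb, chr3:93747507-97591193. Stretches of at least 1 Mb numbered 17 on the short arm and covered 61.6% of its length, against 23 and 46.0% on the long arm. Between neighbouring summits the median distance was 0.0525 Mb on the short arm and 0.0364 Mb on the long arm. Fewer peaks per Mb leave longer stretches and wider spacing, so these values are no separate result. Across the boundary itself 6.44 Mb held no summit. The last peak of the short arm, chr3:87256778-87256978, had a fold enrichment of 3.0 with 21 ChIP fragments over its summit, and the first of the long arm, chr3:93692656-93692844, had 2.93 with 22 fragments.

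The strength of single peaks differed far less than their number. Fold enrichment is the ratio at the summit of the ChIP signal to the background around it, as the peak caller MACS2 gives it with a pseudocount of 1 on either term. Its median was 4.11 on the short arm (interquartile range 3.34 to 6.11) and 4.02 on the long arm (3.31 to 5.47), against 4.01 on the other chromosomes. The ratio of the medians was 0.979 (0.849 to 1.09), an interval that includes 1. A fold enrichment of at least 5 was reached by 93 peaks of the short arm (35.2%, 29.7 to 41.2%) and by 153 of the long arm (29.5%, 25.8 to 33.6%), beside 32% of all peaks of chromosomes 1 to 22 and X. A fold enrichment of at least 10 was reached by 13 peaks (4.92%) and 15 peaks (2.90%), beside 4.39% of all. The density ratio of the peaks above 10-fold was 0.918 (0.407 to 2.10), an interval too wide to set beside that of all peaks.

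The share of peaks with a q-value of at most 0.05, a p-value adjusted by MACS2 for the number of positions tested, was nearly the same on both arms. It was 59.8% on the short arm (158 peaks, 53.8 to 65.6%) and 59.5% on the long arm (308 peaks, 55.2 to 63.6%), beside 58.8% of all. The difference, long arm minus short arm, was -0.389 percentage points (-7.54 to 6.91). Peaks with a q-value at or below 0.05 had a density ratio of 1.55 (1.28 to 1.89) and those above it 1.58 (1.24 to 2.01), and the intervals overlapped almost fully. Peak width had a median of 324 bp on the short arm and 354 bp on the long arm, a ratio of 1.09 (0.963 to 1.28). Wider than 1000 bp were 17 peaks (6.44%) and 31 peaks (5.98%), beside 5.63% of all.

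For every peak, the ChIP fragments that covered its summit and the background beneath it were recovered from the deposited fold enrichment and p-value, since MACS2 computes both from the same 2 quantities. The median was 24 fragments per summit on the short arm (interquartile range 17 to 35) and 26.5 on the long arm (18 to 39), where the genome-wide background gives 2.88. The ratio of the medians was 1.10 (0.926 to 1.32). The highest number was 107 on the short arm and 193 on the long arm.

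The arms also differed in the local background, the rate of fragments that the control library gives around a peak. MACS2 takes it as the highest of the genome-wide rate and the rates in windows of 10 kb, 1 kb and the fragment length of 183.4 bp. It is given here in multiples of the genome-wide level, at which a 10 kb window holds 59.7 control fragments. A value of 1 means that no window exceeded that level, so control coverage below it cannot be seen. On the short arm 140 of 264 peaks (53.0%, 47.0 to 59.0%) lay at the genome-wide level, beside 37% of all peaks of chromosomes 1 to 22 and X. On the long arm 105 of 518 peaks did (20.3%, 17.0 to 23.9%). The difference was -32.8 percentage points (-39.5 to -25.7), with the short arm above the share of all peaks and the long arm below it.

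A background at or above 2 times the genome-wide level, called raised, was found at 25 peaks of the short arm (9.47%, 6.5 to 13.6%) and at 105 of the long arm (20.3%, 17.0 to 23.9%), beside 15.2% of all. The difference was 10.8 points (5.55 to 15.5). Between these classes, above the genome-wide level but under 2 times it, lay 99 peaks of the short arm (37.5%) and 308 of the long arm (59.5%). Backgrounds at or above 5 times it were rare on both, at 1 peak and 4 peaks, beside 1.51% of all. The median was 1.00 on the short arm and 1.33 on the long arm (1.21 to 1.37), and the upper quartile 1.34 and 1.83. The highest values were 5.48 and 7.30.

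**Figure D2:**
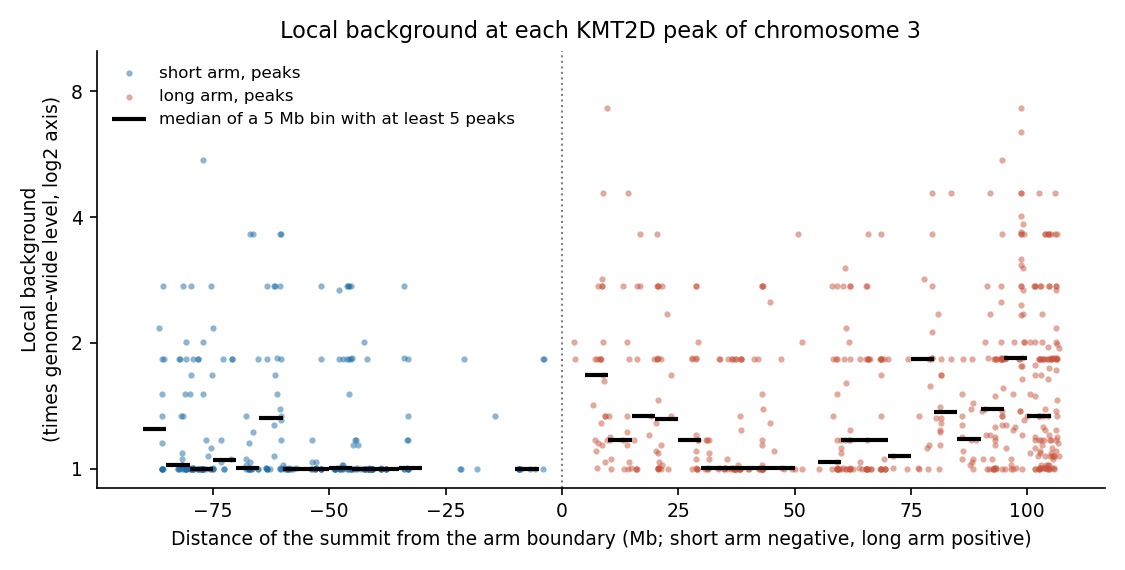
Local background at each peak in multiples of the genome-wide level (vertical log2 axis) by distance of the summit from the arm boundary in Mb (short arm negative and blue, long arm positive and red), where each point is a peak and each black line the median of a 5 Mb bin with at least 5 peaks. On the short arm 1 bin median of 13 reached 1.3 times the genome-wide level, and on the long arm 8 of 19 did, in an inner and an outer stretch.

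The windows that set the background differed as well. Only the 10 kb window, the widest and the least affected by single fragments, could have set it at 25 peaks of the short arm (9.47%) and at 128 of the long arm (24.7%, 21.2 to 28.6%), against 16.6% on the other chromosomes. At those peaks the window held a median of 63.0 control fragments on the short arm and 71.0 on the long arm. The 10 kb or the 1 kb window set it at 55 (20.8%) and 140 peaks (27%), and the window of fragment length at 44 (16.7%) and 145 peaks (28.0%). Each of these 3 classes thus took a larger share of all peaks on the long arm, where fewer peaks lay at the genome-wide level. Of the peaks above that level, they held 25, 55 and 44 of 124 on the short arm. On the long arm they held 128, 140 and 145 of 413. Only the class of the 10 kb window alone took a larger part of those peaks on the long arm. The part of the 1 kb window by itself cannot be told.

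Density by class of background restates this difference in shares per unit of length and is no separate result. Peaks at the genome-wide level were sparser on the long arm, with 1.01 per Mb against 1.69 per Mb on the short arm, a ratio of 0.596 (0.459 to 0.774). Peaks above that level were denser on it, with 3.97 against 1.5 per Mb and a ratio of 2.65 (2.16 to 3.26). For peaks with a raised background the ratio was 3.34 (2.14 to 5.39). A peak over a higher background needs more ChIP fragments to be called, and the median was 28.5 and 29 fragments on the short and the long arm in peaks above the genome-wide level, but 21 and 18 in peaks at it.

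**Figure D3:**
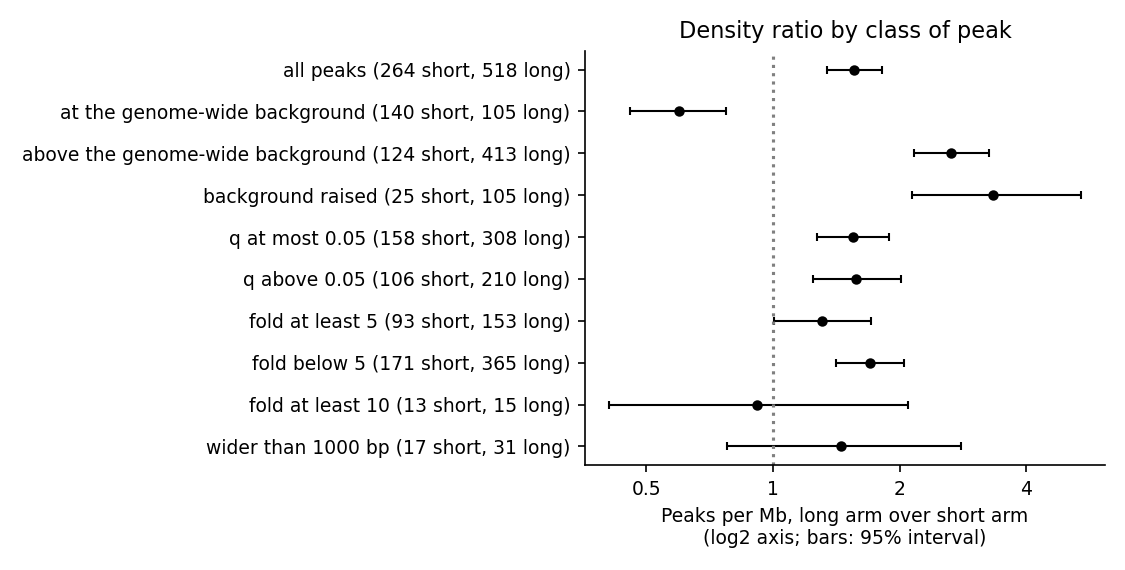
Ratio of peaks per Mb on the long arm to peaks per Mb on the short arm (horizontal log2 axis) for classes of peaks, with points for the ratio and bars for its exact conditional 95% interval. The ratio was 0.596 for peaks at the genome-wide background, 2.65 for peaks above it and between 0.918 and 1.70 for classes by q-value, fold enrichment and width.

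Among peaks at the genome-wide level, 47 of 105 on the long arm (44.8%, 35.6 to 54.3%) reached a q-value of at most 0.05, against 83 of 140 on the short arm (59.3%, 51.0 to 67.1%). The difference in this share was -14.5 points (-26.5 to -1.90). Median fold enrichment of these peaks was 3.75 on the long arm and 4.29 on the short arm, a ratio of 0.873 (0.737 to 1.09), and the ratio of their median fragments was 0.857 (0.708 to 1.11), both with intervals that include 1. Above the genome-wide level the medians were 4.11 on the long arm and 3.90 on the short arm, and the shares 63.2% and 60.5%. Among peaks with a q-value of at most 0.05 alone, 52.5% lay at the genome-wide level on the short arm and 15.3% on the long arm.

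**Figure D4:**
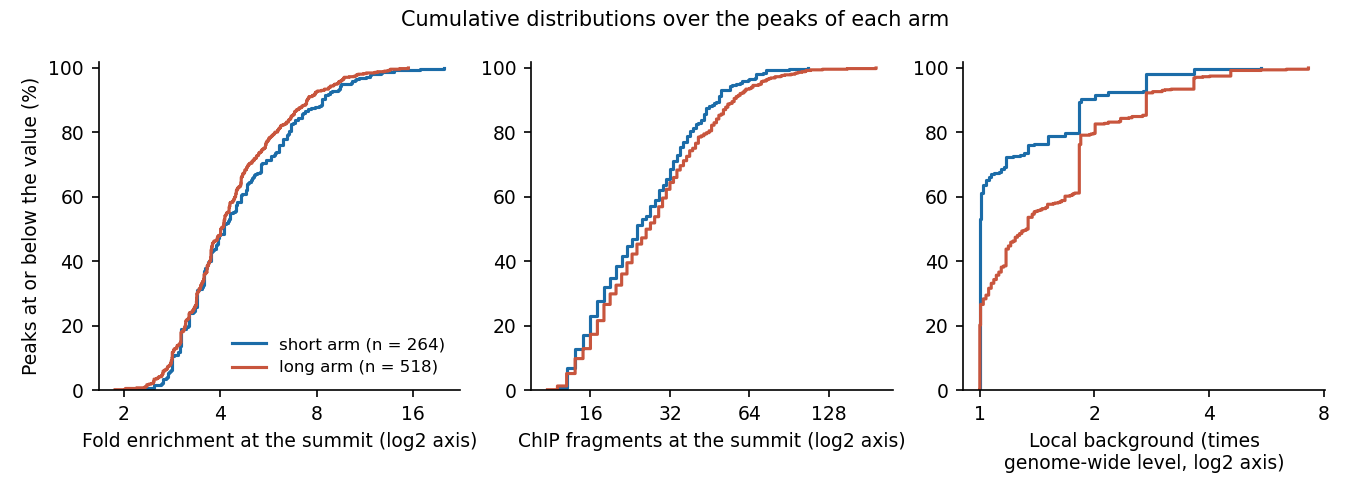
Cumulative percent of peaks (vertical axis) by fold enrichment, by ChIP fragments over the summit and by local background in multiples of the genome-wide level (horizontal log2 axes), for the 264 peaks of the short arm (blue) and the 518 of the long arm (red). The curves for fold enrichment ran close together, with medians of 4.11 and 4.02, while those for local background stood apart at the genome-wide level, at 53.0% and 20.3%.

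The background was not evenly raised along the long arm. Of bins with at least 5 peaks, 19 of 19 on the long arm and 7 of 13 on the short arm had a median above the genome-wide level, several of them by under 1 control fragment per 10 kb. The highest medians of the long arm were 1.84 at 186 to 191 Mb, 1.83 at 166 to 171 Mb and 1.67 at 96 to 101 Mb, and those of the short arm 1.32 at 26 to 31 Mb, 1.25 at 1 to 6 Mb and 1.05 at 16 to 21 Mb. Stretches chosen after these bins had been seen showed where these medians lay. From 91 to 121 Mb 14 of 98 peaks (14.3%, 8.70 to 22.6%) lay at the genome-wide level, from 121 to 166 Mb 67 of 163 (41.1%, 33.8 to 48.8%), and from 166 Mb to the end 24 of 257 (9.34%, 6.36 to 13.5%). The middle stretch of the long arm came near the outer 46 Mb of the short arm, where 90 of 194 peaks (46.4%, 39.5 to 53.4%) were at that level. On the inner short arm, from 46 to 91 Mb, 50 of 70 (71.4%, 59.9 to 80.7%) were. Median fold enrichment ranged only from 4.01 to 4.38 over these 5 stretches.

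With the long arm beyond 181 Mb left out, the share at the genome-wide level on that arm was 27.7%, and its difference from the short arm -25.3 points (-32.9 to -17.3). The difference in raised background was then 6.17 points (0.659 to 11.5), against 10.8 points over the whole arms, and the ratio of the median backgrounds 1.17 against 1.33. With the 3 densest bins of both arms and the end piece left out, 48.8% of the short arm and 27.7% of the long arm lay at the genome-wide level, a difference of -21.1 points (-30.1 to -11.8). The difference in raised background was 6.26 points (-0.346 to 12), an interval that includes 0. The contrast in the share at the genome-wide level was thus smaller outside these bins, and its interval still lay below 0. When each bin of 5 Mb was left out in turn, the difference ranged from -36.0 to -29.7 points and the density ratio from 1.4 to 1.72.

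Runs of neighbouring peaks in the same class of background were longest on the arm where that class was the more frequent. Run length grows with the share of a class and with the number of peaks, so this is no separate result. The longest run of peaks at the genome-wide level held 12 peaks over 2.14 Mb on the short arm, chr3:49938084-52081470, and 4 peaks on the long arm. The longest run above it held 32 peaks over 1.39 Mb on the long arm, chr3:193587708-194980597, with a median of 1.34 and a range of 1.0046 to 4.56. On the short arm such a run held 11 peaks, chr3:29107178-30543168, with a range of 1.0046 to 3.65. The longest run of raised background held 14 peaks over 0.120 Mb on the long arm, chr3:189542569-189662429, where it ranged from 2.33 to 7.30 times the genome-wide level with a median of 3.65. Fold enrichment in that run had a median of 4.48. On the short arm the longest such run held 2 peaks.

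The 5 peaks of highest fold enrichment on the short arm stood over the genome-wide background, where 53.0% of all its peaks lay. Of its 13 peaks at or above 10-fold, 8 lay at that level and 5 above it. The highest fold enrichment was 19.9, at chr3:15687248-15689256, with 107 fragments over the summit, the most on that arm. It was followed by 16.8 at chr3:37987392-37988015 with 90 fragments, 13.9 at chr3:39182292-39183220 with 74, 12.8 at chr3:5036319-5037718 with 68 and 12.6 at chr3:12804711-12805353 with 67. The local background at all 5 was 1.00 times the genome-wide level.

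On the long arm, all 5 peaks of highest fold enrichment stood over more, the last of them by a small margin. Of its 15 peaks at or above 10-fold, 3 lay at the genome-wide level, beside 20.3% of all its peaks. The highest fold enrichment was 15.5 at chr3:177063288-177064027, with 105 fragments over a background of 1.51. The next, 14.5 at chr3:189551742-189552502, had 150 fragments over a background of 2.74. Fold enrichment was 13.6 at chr3:150062687-150063408 with 92 fragments and a background of 1.51, and 13.5 at chr3:172440284-172440847 with 98 fragments and 1.67. The last of the 5, at chr3:196757920-196758760, had 13.3 with 71 fragments and 1.0046. The peak with most fragments on the long arm, chr3:189655073-189656167, had 193 of them over a background of 7.30, and its fold enrichment was 8.27. More fragments thus lay over it than over the strongest peak of the short arm, whose fold enrichment was higher.

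Clusters of at least 3 peaks with gaps of up to 10000 bp, of the order used to stitch enhancer domains, numbered 20 on the short arm and 33 on the long arm. Per Mb these were 0.242 and 0.317, a ratio of 1.31 (0.731 to 2.41), so that no difference was detectable at these numbers. They held 72 peaks of the short arm (27.3%, 22.3 to 32.9%) and 123 of the long arm (23.7%, 20.3 to 27.6%), beside 30% of all. The median background of the cluster lay above the genome-wide level in 10 of 20 clusters on the short arm and in 30 of 33 on the long arm, and was raised in 1 and in 6. Of all peaks, 124 of 264 on the short arm and 413 of 518 on the long arm lay above that level. The background was raised at 9.47% and 20.3% of them. The counts of clusters thus follow the shares of the arms and are no separate result.

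The largest clusters of the short arm were chr3:5019102-5046595 with 6 peaks and a highest fold enrichment of 12.8, chr3:12791774-12805353 with 5 peaks and 12.6, and chr3:13881579-13895729 with 5 peaks and 11.4. A further cluster of 5 peaks, chr3:57955498-57969868, came after these by its highest fold enrichment of 7.66. Their median background was 1.00 in each. On the long arm the largest was chr3:134030504-134055750, in the middle stretch, with 8 peaks, a highest fold enrichment of 9.71 and a median background of 1.0046. The cluster chr3:189646094-189662775 had 6 peaks, a highest fold enrichment of 8.27 and a median background of 3.42, and it held the summit of 193 fragments. The cluster chr3:185538873-185544111 had 6 peaks within 5.24 kb, a highest fold enrichment of 3.47 and a median background of 1.83.

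The contrast between the arms was set beside that between both sides of other chromosomes, each divided at its longest stretch without a summit. Chromosome 3 was divided at 91 Mb. The sides of the other chromosomes need not be arms, and on chromosome 4 they held 457 and 48 peaks. The ranks below therefore do not compare arms with arms. With at least 20 peaks required on either side, 20 chromosomes including chromosome 3 could be compared. Chromosome 3 ranked 1 of 20 by the gap in the share of peaks at the genome-wide background, with 32.8 points. The gaps of the other chromosomes ran from 0.873 to 25.5 points with a median of 9.22, and the nearest was on chromosome 10. By density ratio of the denser side to the other, chromosome 3 ranked 9, the others ranging from 1.01 to 2.61. By the gap in raised background it ranked 3, behind a highest value of 23.3 points on chromosome 11, and by the ratio of median fold enrichment 12. Of the 40 sides, the short arm of chromosome 3 ranked 6 and the long arm 38 from the highest share at the genome-wide background, and only both sides of chromosome 14 had lower shares than the long arm. Among peaks with a q-value of at most 0.05 chromosome 3 again ranked 1, of 19, with 37.3 points against 34.6 on chromosome 4. When chromosome 3 was divided by the rule of the others, at its own longest stretch of 11.1 Mb, its sides held 248 and 534 peaks. The gap at the genome-wide background was then 29.7 points and ranked 1, that in raised background 9.58 points and ranked 3, and the density ratio ranked 15, with 4.63 per Mb on the side of lower positions and 4.15 on the other. With lengths from first to last summit, the stretch of 11.1 Mb counts to neither side in this division, whereas at 91 Mb it counts to the short arm. The change in direction of the density contrast can thus not be put down to the place of division alone. These ranks describe the list and were not tested.

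**Figure D5:**
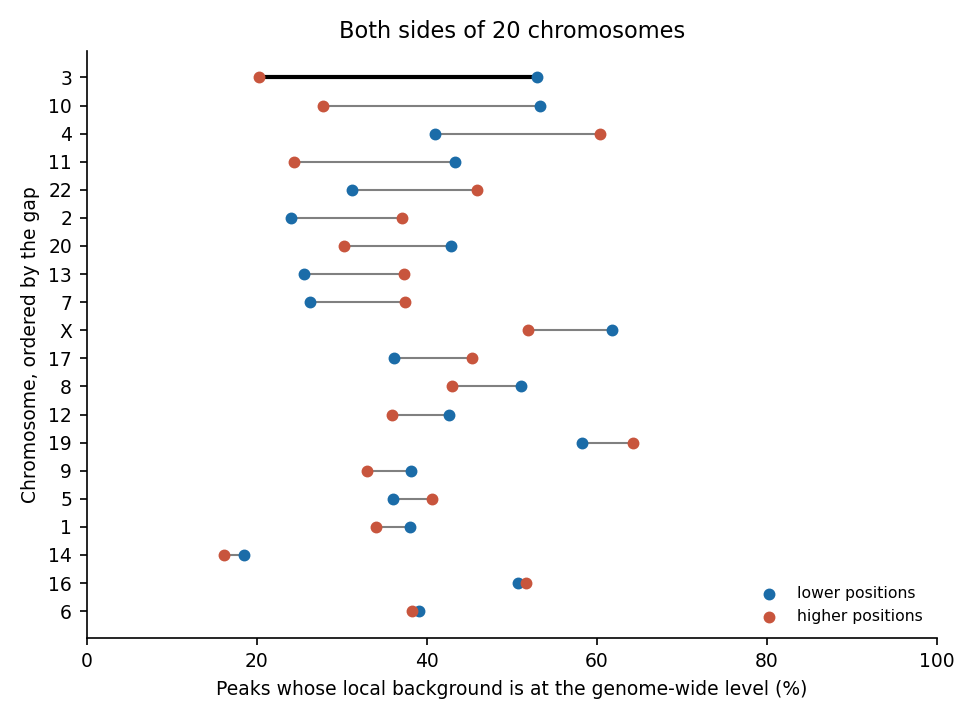
Percent of peaks whose local background was at the genome-wide level (horizontal axis) on both sides of 20 chromosomes ordered by the gap (vertical axis), with blue points for the side of lower positions, red for the side of higher positions, and a black line for chromosome 3. The short arm of chromosome 3 stood at 53.0% and its long arm at 20.3%, a gap of 32.8 points, and the widest other gap was 25.5 points.

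The local background comes from the control library and not from the KMT2D ChIP. Copy number of either arm was not measured in these data, and its part in the contrast between the arms was not tested.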

How the data were processed

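SCC23 cells were assayed by ChIP-seq, and the peak list of 1 library (KMT2D ChIP, KMT2D-WT, 6 h without glucose) was used. Groups followed the antibody and the genotype in the labels. Per the study's methods, the authors aligned reads with Bowtie2 to hg19 (GRCh37), discarded reads without a unique position and ran MACS2 at a p-value under 0.01. The control is not named in the sources used here. Positions are the deposited ones, counted from 1. The deposited fold enrichment is a ratio of scaled ChIP signal to local background with a pseudocount of 1 on either term. The deposited significance columns are −log10 p-values and −log10 q-values, taken at each summit. The deposited score equals 10 times the −log10 p cut to a whole number in 100% of lines and was not used further.

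Fragments over the summit and local background were rebuilt from fold enrichment and p-value, with a ChIP coverage 2.63 times that of the control (a scale of 0.381) and 1.10 scaled fragments as the genome-wide level. All 782 peaks were solved, with a largest gap of 0.000218 in −log10 p, and 0 of them had another solution. The rebuilding was tested on simulated lists. Total library depth was not analysed here.

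Intervals at the 95% level were exact Poisson for densities, exact conditional for their ratios, Wilson for shares and Newcombe's for differences of shares. The interval of a median came from its order statistics. That of a ratio of medians came from the outer bounds of both and is wider than the 95% level. Arm lengths ran from the first to the last summit. Computations ran in Python 3.11.15 with numpy 2.4.6, pandas 2.3.3 and scipy 1.17.1, and figures were drawn with matplotlib 3.10.9.

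The arms, lists and measures were chosen with earlier results of these data known. Named items were, per arm, the 5 peaks of highest fold enrichment and the 1 of most fragments, the 3 densest and 3 sparsest bins, the 3 bins of highest median background with at least 5 peaks, the 3 clusters with most peaks and the 2 longest stretches without a summit. Of 11 planned results, 2 (peaks at gene starts and lists of chromosome 3 genes) need an hg19 annotation and were not run. Gene counts per arm were taken from GRCh38, and no coordinate was converted.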

Additional observations from a re-analysis of the deposited data

How the results depend on the processing

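The direction and size of the contrasts were recomputed under 99 alternative values of 11 results. Of these, 80 stayed within the interval of the value reported or, for the rank among chromosomes, kept the same rank. In 12 the value passed to the other side of no difference, and all but 1 of these belonged to results whose own interval included no difference. Restriction to peaks at the genome-wide background, leaving out each bin, the long arm beyond 181 Mb or the densest bins of both arms, the other division of chromosome 3, and density per gene were chosen after seeing the data.

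Among peaks at the genome-wide background only, the density ratio of long arm to short arm changed direction to 0.596, as the shares of peaks at that background make it, the ratio of median fragments was 0.857, the difference in the share with a q-value of at most 0.05 was -14.5 points and the ratio of cluster density was 0.114. Without the long arm beyond 181 Mb, the density ratio was 1.12, the ratio of cluster density 0.671, the ratio of median backgrounds 1.17 and the difference in the share at the genome-wide level -25.3 points. Without the 3 densest bins of both arms these last 2 values were 1.17 and -21.1 points. The ratio of median backgrounds, 1.33 over all peaks, was 1.70 at a q-value of at most 0.05, 1.77 at 0.01 and 1.51 among the stronger peaks, those in the upper part of the whole list by fold enrichment. The difference in raised background, 10.8 points over all peaks, was 17.1, 16.5 and 16.0 points under those 3 settings, 19.8 with a threshold of 1.5 times and 5.44 with 3 times. Among the stronger peaks the difference in the share at the genome-wide level was -40.4 points. The cause of these shifts was not tested. In 10 Mb bins the ratio of the medians was 1.07, and 1.67 in 2 Mb bins.

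No paired analysis was possible because only 1 library was analysed. Other distances to genes, 2 choices listed in advance, were not run. With 1 library and a median of 24 and 26.5 fragments over a summit on the short and the long arm, recurrence of weaker peaks in another library could not be judged.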
